A study of Mus musculus with 62 samples.

Results

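The myelin sheath genes Mbp, Mobp, Cnp, Mal, Cldn11, Mag, Mog and Opalin and the protease gene Klk6 were followed through the mouse hippocampus libraries of this study. These 9 genes, of 53975 gene identifiers in the deposited tables, were chosen by name. The 8 myelin genes were named for their function, and Klk6 was chosen by its measured values, namely its APP against WT difference at 3 months and over the ages. The differences of Klk6 between genotypes and between ages, which use the same APP values, are therefore given as descriptions without a test. The study compared a mouse model of amyloid pathology with control mice during the course of disease. The mice were APP NL-G-F animals (APP), whose App gene carries a humanised amyloid beta sequence with disease mutations, or C57BL/6J animals (WT), aged 3, 6 or 12 months, and the hippocampi of the 2 hemispheres of each mouse were combined. The series text describes 3 months as an age with very few plaques, 6 months as the age at which plaques and symptoms appear, and 12 months as the end stage. Long, ribosome-depleted RNA was sequenced from 17 mice, with 3 per genotype and age except for WT at 3 months, which had 2. The labels do not say whether the C57BL/6J animals were littermates of the APP animals. The HT-22 line, neuronal cells of mouse hippocampal origin, gave another 14 long-RNA libraries, and 31 short-RNA libraries were not used here.

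Myelin is the multilayered membrane that oligodendrocytes wrap around axons in the central nervous system. Compact myelin is held together by basic proteins on the cytoplasmic side, and specialised proteins seal its edges, keep channels of cytoplasm open and hold the inner membrane to the axon. In mice, myelin is laid down mostly in the first weeks after birth and goes on being added in adulthood from precursor cells. Klk6 encodes kallikrein-related peptidase 6, a secreted serine protease that is made by a subset of mature oligodendrocytes, can cleave myelin basic protein and amyloid precursor protein, and can act on protease-activated receptors. In a bulk tissue library, fewer oligodendrocytes and less RNA in each oligodendrocyte cannot be told apart.

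Promoters of 8 of the 9 genes were matched by symbol in RefSeq promoter windows (GRCm38.p6), all but Mbp. The 4 printed here are those of Mobp, the gene with the highest level, Mag, a gene of the group that moved together, and Opalin and Klk6, the genes whose levels departed most from that group. Each is the 250 bases before the start, read 5′ to 3′ on the gene's strand. Capitals mark ACAAAG or ACAATG (core letters bound by SoxE factors such as Sox10, an activator of myelin genes) and CTGGCAC (the core bound by Myrf, another such activator), on either strand.
Mobp: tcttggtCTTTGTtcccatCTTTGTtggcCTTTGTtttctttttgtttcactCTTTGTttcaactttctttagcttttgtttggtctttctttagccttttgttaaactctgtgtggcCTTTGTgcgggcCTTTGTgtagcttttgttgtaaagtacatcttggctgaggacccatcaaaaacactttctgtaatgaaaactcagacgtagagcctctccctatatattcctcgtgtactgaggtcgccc
Mag: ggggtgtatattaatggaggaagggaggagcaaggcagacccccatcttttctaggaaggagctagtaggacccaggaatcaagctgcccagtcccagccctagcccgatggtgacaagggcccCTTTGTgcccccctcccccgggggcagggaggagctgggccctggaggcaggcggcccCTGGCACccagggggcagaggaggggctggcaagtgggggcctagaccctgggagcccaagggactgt
Opalin: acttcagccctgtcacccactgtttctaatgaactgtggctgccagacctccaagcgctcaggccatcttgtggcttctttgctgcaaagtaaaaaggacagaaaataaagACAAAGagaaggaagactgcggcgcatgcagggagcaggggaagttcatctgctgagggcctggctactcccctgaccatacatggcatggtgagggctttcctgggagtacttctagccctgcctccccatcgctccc
Klk6: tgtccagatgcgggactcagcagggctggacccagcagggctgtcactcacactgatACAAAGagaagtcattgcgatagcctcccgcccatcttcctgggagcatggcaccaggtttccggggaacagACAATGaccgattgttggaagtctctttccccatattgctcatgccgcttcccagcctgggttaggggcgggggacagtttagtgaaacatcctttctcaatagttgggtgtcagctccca
They lie at chr9:120149492-120149741 on the plus strand (Mobp), chr7:30914864-30915113 on the minus strand (Mag), chr19:41077114-41077363 on the minus strand (Opalin) and chr7:43824294-43824543 on the plus strand (Klk6). The Mobp window held 6 matches to ACAAAG, and those of Mag, Cnp, Opalin and Klk6 held 1 each. Klk6 also held 1 match to ACAATG. The motif CTGGCAC was found 1 time each in Mag and Cnp, and TATAAA in none of the 8 windows. The windows of Mog, Mal and Cldn11 held none of these motifs. Over 32851 RefSeq windows of the same length, ACAAAG was found in 16.5%, ACAATG in 10.7%, CTGGCAC in 4.19% and TATAAA in 12.4%. A match describes the letters and does not show a bound site.

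Values below are TPM (transcript abundance relative to all transcripts of a library) as deposited, divided by a factor for each library from the median of ratios to the geometric mean library (scaled TPM). Relative depth, taken as the ratio of deposited Coverage to FPKM, ran from 1.42 to 3.04, and the scaling factors from 0.686 to 1.46. Some libraries differed in the levels of marker genes of brain regions, and the cause was not tested. Summed scaled TPM of 8 thalamic markers was 575 and 194 in APP replicates 1 and 2 at 3 months and 188 in APP replicate 1 at 6 months, against 48.7 to 91.0 in the other 14 libraries. Of 8 hippocampal markers the sum was 97.6, 168 and 218 in the APP libraries at 3 months and 221 to 303 in the others, and of 8 striatal markers 245, 111 and 78.3 against 49.2 to 73.2. None of the thalamic, hippocampal or striatal markers was listed at 0 in every library, while Pmp2, a gene of peripheral myelin, was listed at 0 in every library. Xist ran from 71.2 to 138 in all APP libraries and both WT libraries at 3 months, while the 6 WT libraries at 6 and 12 months held at most 0.52 of it and 18.6 to 28.3 of the Y-linked Ddx3y. APP against WT at 6 and 12 months, their average, the genotype by age interaction and the comparisons of WT at 3 months with later WT therefore also compare libraries without and with Y-linked transcripts, and this cannot be told apart from genotype or age. Choroid plexus markers summed to 40.1 to 2483 over the libraries.

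All 9 genes passed the filter of a mean scaled TPM of at least 1, Klk6 only through its levels in APP at 3 and 12 months. Contrasts were tested with limma on log2(scaled TPM + 1) over 17768 genes, with all 17 libraries in 1 fit, and a gene was called at a Benjamini-Hochberg adjusted p below 0.05. The p-values rest on the spread between mice within groups, estimated for each gene over all 6 groups together.

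By group mean, the myelin genes were highest at 3 months and lower at 6 and 12 months in both genotypes, with Opalin in WT as the exception. The summed scaled TPM of the 8 genes was 1788, 1059 and 1458 in the 3 APP mice at 3 months and 1056 and 1036 in the 2 WT mice. At 6 months it was 807, 675 and 623 in APP and 756, 684 and 563 in WT, and at 12 months 860, 803 and 798 in APP and 681, 699 and 706 in WT. The sums of the genotypes overlapped at 6 months only, but at 3 months the nearest were 1059 in APP and 1056 in WT. The geometric mean of scaled TPM + 1 over the same 8 genes overlapped at 3 months too. It was 81.4 in APP replicate 2 against 82.1 and 88.2 in WT. Such separations of sums were not counted over all genes. Every library at 3 months had a sum above that of every later library.

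**Figure D1:**
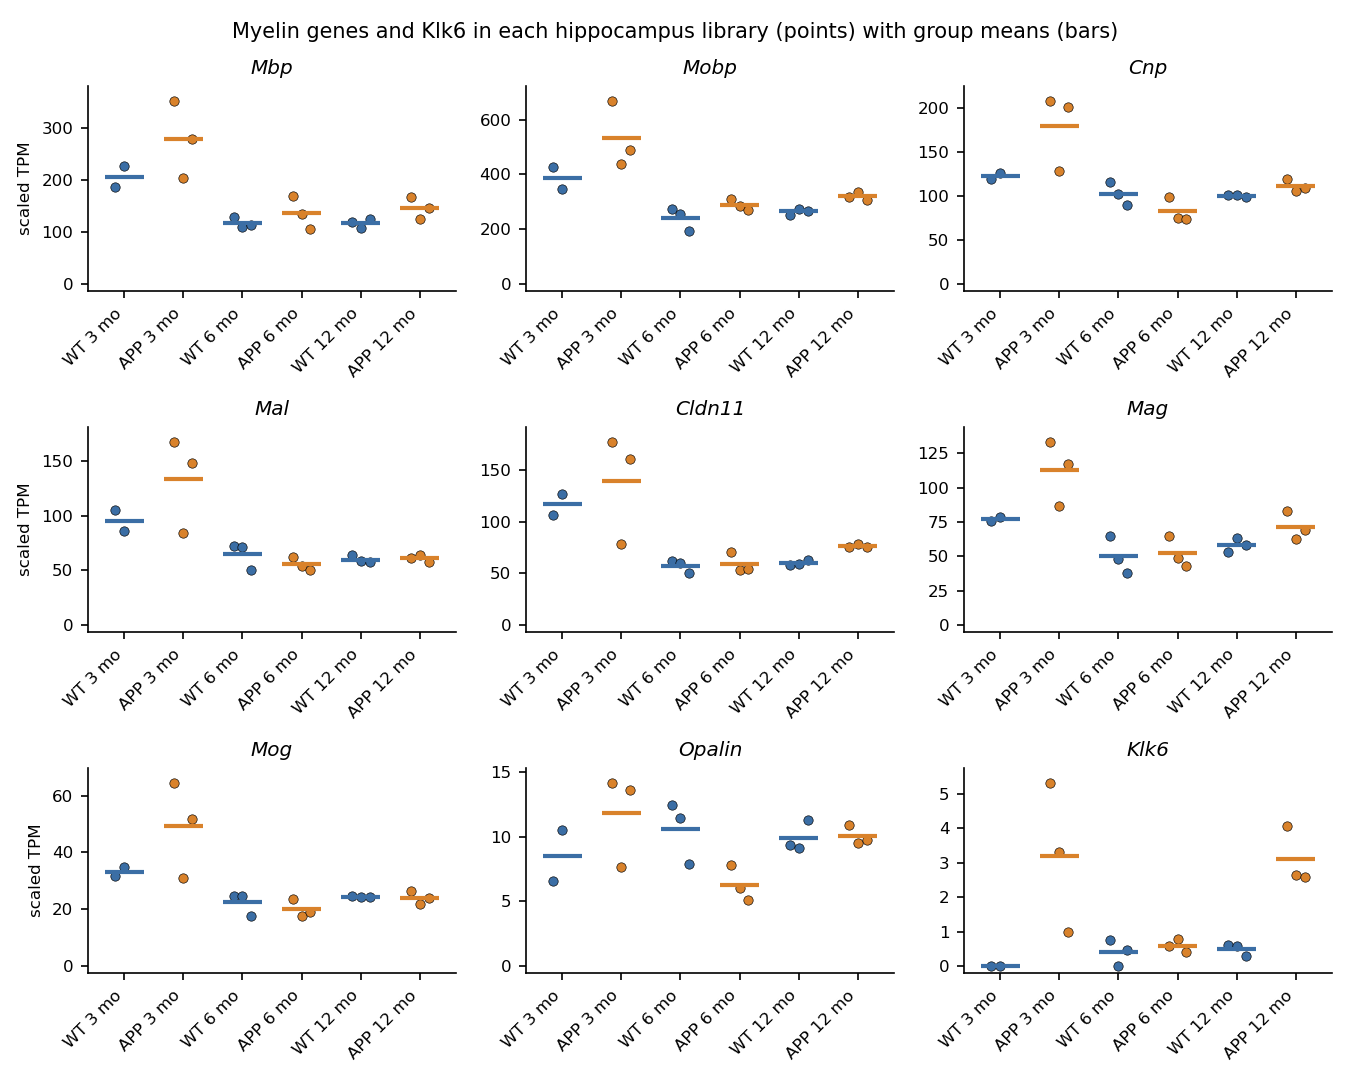
Scaled TPM of the 9 genes in each library (points) with group means (bars), by genotype and age. Most myelin genes were highest at 3 months with the widest spread among the 3 APP mice, and Opalin was lowest in APP at 6 months. Klk6 was highest in APP at 3 and 12 months, but APP replicate 3 at 3 months held 0.996, near the 0.770 of APP replicate 2 at 6 months.

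Mobp, Mbp and Mal encode proteins of compact myelin and its lipid-rich membrane. Mobp, myelin-associated oligodendrocyte basic protein (ENSMUSG00000032517, chromosome 9, 120149707 to 120181484, plus strand, GRCm38), had the highest level, with a mean of 336 scaled TPM. It was at 669.8, 439.9 and 488 in APP and 426 and 346 in WT at 3 months. At 6 months Mobp was at 309, 286 and 271 in APP and 276, 257 and 195 in WT. At 12 months it was at 316, 336 and 308 in APP and 253, 275 and 268 in WT, so that APP lay above WT without overlap at 3 and 12 months and overlapped it at 6 months.

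Mbp, myelin basic protein (ENSMUSG00000041607, chromosome 18, 82475146 to 82585637, plus strand), which adheres the cytoplasmic faces of compact myelin, had a mean of 165 scaled TPM. It was at 352, 203 and 278 in APP and 186 and 227 in WT at 3 months. The later libraries ran from 106 to 169.5 in APP and from 108 to 128 in WT. The genotypes overlapped at every age. Mal, a proteolipid involved in sorting membrane to the myelin sheath (ENSMUSG00000027375, chromosome 2, 127633226 to 127656695, minus strand), was at 168, 84.0 and 148 in APP and 105 and 86.4 in WT at 3 months, and at 50.6 to 72.3 in the 12 later libraries of both genotypes, which overlapped.

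The next 3 genes act at the borders and channels of the sheath. Cnp, the cyclic nucleotide phosphodiesterase that keeps cytoplasmic channels open in myelin (ENSMUSG00000006782, chromosome 11, 100574904 to 100591729, plus strand), was at 208, 128 and 201 in APP and 119 and 126 in WT at 3 months. At 6 months Cnp was at 99.3, 74.8 and 74.3 in APP and 116, 102 and 89.9 in WT, and at 12 months at 119, 105 and 108 in APP and 101, 101 and 98.3 in WT. APP lay above WT at 3 and 12 months without overlap, and its mean lay below WT at 6 months, where 1 APP library overlapped the WT range.

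Cldn11, the claudin of the tight junctions between myelin layers (ENSMUSG00000037625, chromosome 3, 31149920 to 31164324, plus strand), was at 177, 78.8 and 160.5 in APP and 107 and 127 in WT at 3 months. At 12 months it was at 75.7, 78.9 and 75.6 in APP and 57.7, 59.4 and 62.5 in WT, a separation without overlap. The value of 78.8 in APP replicate 2 at 3 months lay within the APP range at 12 months, apart from the other 2 APP mice of its age. Mag, the adhesion protein of the inner myelin membrane facing the axon (ENSMUSG00000036634, chromosome 7, 30899176 to 30914873, minus strand), was at 133, 86.9 and 117 in APP and 75.6 and 78.8 in WT at 3 months. At 12 months Mag was at 82.9, 62.5 and 69.5 in APP and 53.0, 63.3 and 58.3 in WT. Its genotypes were apart at 3 months and overlapped at 6 and 12 months.

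Mog, the glycoprotein of the outermost myelin surface (ENSMUSG00000076439, chromosome 17, 37010743 to 37023398, minus strand), was at 64.5, 31.1 and 51.8 in APP and 31.6 and 34.7 in WT at 3 months. At 12 months it was at 26.4, 21.8 and 24.0 in APP and 24.8, 24.2 and 24.3 in WT, with almost no spread among the WT mice. Opalin, a transmembrane sialoglycoprotein of oligodendrocytes (ENSMUSG00000050121, chromosome 19, 41062474 to 41077113, minus strand), was at 14.2, 7.66 and 13.6 in APP and 6.55 and 10.5 in WT at 3 months. At 6 months Opalin was at 7.80, 6.00 and 5.07 in APP and 12.5, 11.5 and 7.91 in WT, and at 12 months at 10.9, 9.47 and 9.75 in APP and 9.36, 9.12 and 11.3 in WT. It was the 1 myelin gene with every APP value below every WT value at 6 months, the nearest values being 7.80 and 7.91. Its WT mean was 8.52 ± 2.78 (SD, n = 2) at 3 months and 9.91 ± 1.17 (SD, n = 3) at 12 months.

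Klk6 (ENSMUSG00000050063, chromosome 7, 43824499 to 43832030, plus strand) had a far lower level, with a mean of 1.37 scaled TPM. At 3 months it was at 5.32, 3.30 and 0.996 in the 3 APP mice and listed at 0 in both WT mice. At 6 months Klk6 was at 0.566, 0.770 and 0.399 in APP and 0.762, 0 and 0.460 in WT. At 12 months it was at 4.07, 2.64 and 2.58 in APP and 0.618, 0.588 and 0.304 in WT. The APP mice at 3 and 12 months held the 6 highest values of the 17 libraries, and APP at 6 months overlapped WT of the same age.

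By group mean and SD, Klk6 ordered as APP at 3 months (3.21 ± 2.17, n = 3), APP at 12 months (3.10 ± 0.848, n = 3), APP at 6 months (0.578 ± 0.186, n = 3), WT at 12 months (0.503 ± 0.173, n = 3), WT at 6 months (0.408 ± 0.384, n = 3) and WT at 3 months (listed at 0 in both). The ranges of the first 2 groups overlapped, as did those of the next 3. Deposited Coverage, the mean read depth over the gene, was 6.55, 2.96 and 1.58 in APP at 3 months, 3.43, 3.10 and 2.84 in APP at 12 months, 0.475 to 0.805 in APP at 6 months and at most 0.703 in WT. These depths limit the precision of each value, and a value of 0 can be a failed estimate. The log2 change of Klk6 in APP against WT was 0.20 (SE 0.33) at 6 months and 1.43 (SE 0.33, n = 3 against 3) at 12 months. The latter depends on the pseudocount of 1 and was 2.42 with a pseudocount of 0.1. No fold is given at 3 months, where WT is listed at 0. The SEs come from 1 spread shared over all 6 groups, not from the mice compared alone. They carry no test, since Klk6 was chosen by its APP against WT difference.

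Markers of neighbouring tissue moved with the Klk6 values at 3 months. The APP mice of that age held Klk6 in the same order as their thalamic sums of 575, 194 and 71.2, and the replicate with the lowest thalamic sum held 0.996. The APP mouse with a thalamic sum of 188 at 6 months held 0.566 of Klk6. At 12 months the thalamic sums of APP, 56.8 to 64.8, lay within the WT range of 51.7 to 91.0, and Klk6 was at 2.58 or more in each APP mouse. At 12 months the summed level of 8 microglia markers was also higher in APP, at 307 to 383 against at most 223 in every library outside that group, and its part in the Klk6 values was not tested.

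**Figure D2:**
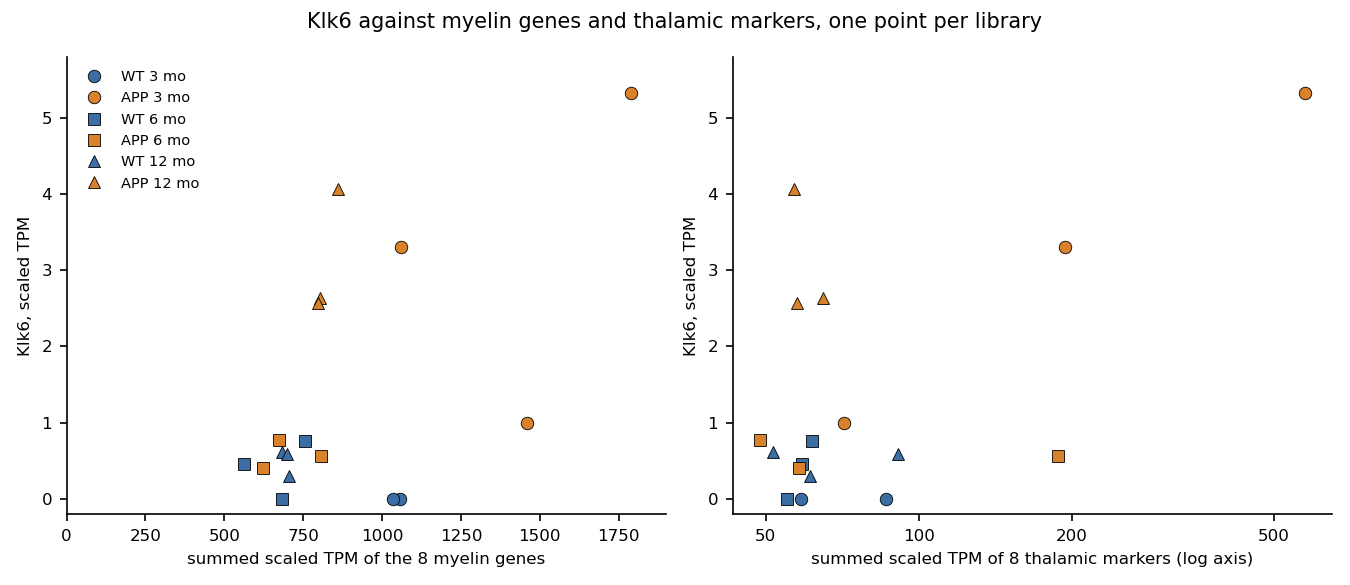
Klk6 (scaled TPM) in each library against the summed scaled TPM of the 8 myelin genes (left) and of 8 thalamic markers (right, log axis), coloured by genotype with a symbol for each age. The 3 APP libraries at 12 months lie at 2.58 to 4.07 of Klk6 with myelin sums of 798 to 860 and thalamic sums of 56.8 to 64.8, while the WT libraries at 3 months lie at 0 with myelin sums above 1000.

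Relative to the summed myelin genes, the mean of Klk6 was higher in APP than in WT at 3 and 12 months. This carries over the difference by which Klk6 was chosen and adds no support to it. In WT at 3 months the ratio is 0 whatever the sum. The ratio of Opalin to that sum was lower in APP at 6 and 12 months. Per 1000 TPM of the 8 myelin genes, Klk6 ran from 3.23 to 4.74 (mean 3.75) in APP at 12 months and from 0.430 to 0.907 (mean 0.726) in WT at 12 months. In APP at 3 months Klk6 ran from 0.683 to 3.12 on this scale, and in APP at 6 months from 0.640 to 1.14. It ran from 0 to 1.01 in WT at 6 months and was listed at 0 in WT at 3 months. On the same scale Opalin was at 6.21 to 10.1 in WT at 3 months, 14 to 16.7 in WT at 6 months and 13.0 to 15.9 in WT at 12 months. In APP it was at 7.23 to 9.30, then 8.14 to 9.66, and then 11.8 to 12.7, so that the genotypes overlapped at 3 months and were apart at both later ages. At 12 months the levels of Opalin itself overlapped (9.47 to 10.9 in APP and 9.12 to 11.3 in WT). The sum of the 8 genes was then higher in APP (798 to 860 against 681 to 706). No test was run on these ratios, and such separations were not counted over all genes.

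**Figure D3:**
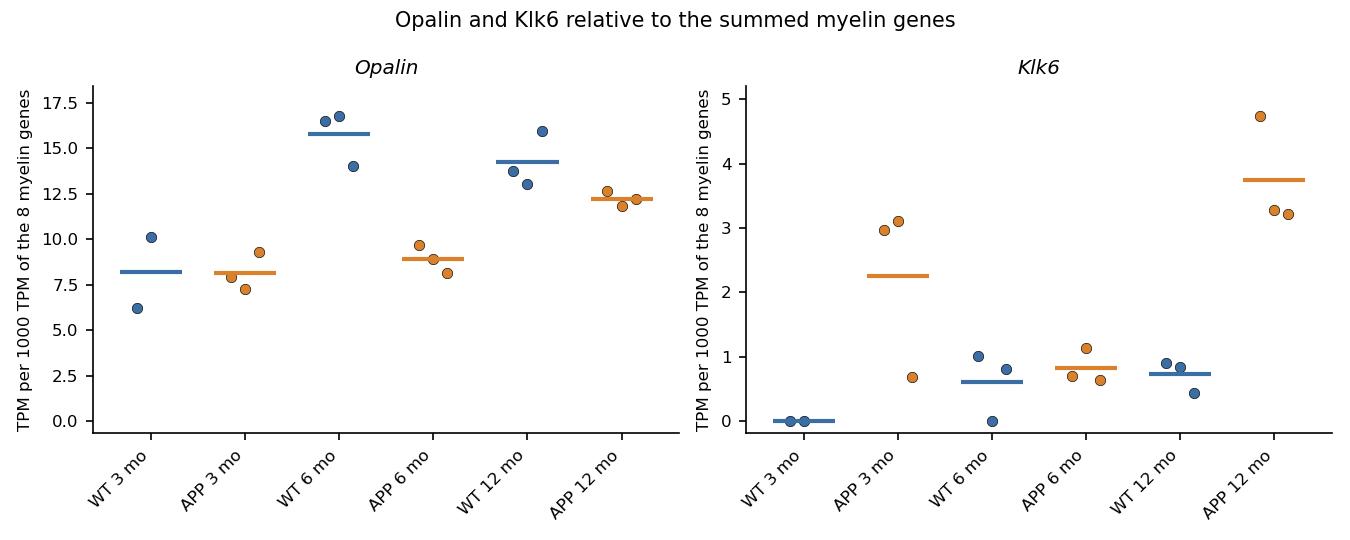
Scaled TPM of Opalin (left) and Klk6 (right) per 1000 scaled TPM of the 8 myelin genes in each library (points) with group means (bars). Opalin was at 14 to 16.7 in WT and 8.14 to 9.66 in APP at 6 months, and Klk6 was above 3 in each APP library at 12 months.

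No myelin gene was called between APP and WT at any age. At 3 months 0 of 8 were called by limma, against 0.298% of all genes tested, and 4 of 8 had an unadjusted p below 0.05. All 8 log2 changes were above 0, with a median of 0.44, against 0.0077 over all genes. In the same contrast thalamic markers were above 0 in 8 of 8 and striatal markers in 8 of 8 (1 called in each), hippocampal markers were below 0 in 8 of 8 (1 called, 7 at an unadjusted p below 0.05), and blood genes were above 0 in 5 of 5 (median 1.14, Hbb-bs called). The part of these in the myelin changes was not tested. Mag (0.52, SE 0.22, limma adjusted p = 0.33) and Cnp (0.51, SE 0.18, limma adjusted p = 0.236) had the largest, and Cldn11 (0.17, SE 0.25) the smallest. Mag, Mobp and Cnp (3 of 8) had every APP value above every WT value at 3 months, as had 14.1% of all genes, and 0 of 8 lay wholly below, against 13% of all genes. Klk6 was chosen for this separation and is not in these counts.

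At 6 months 0 of 8 myelin genes were called (1.51% of all genes), and 1 had an unadjusted p below 0.05. It was Opalin, at -0.67 (SE 0.23, limma adjusted p = 0.145). Of the changes 4 were above 0 and 4 below, with a median of -0.05, and Cnp was at -0.31. None of the 8 lay wholly above WT (11% of all genes), and Opalin alone lay wholly below (10.2%). On TPM as deposited, without scaling, the median of all genes moved to 0.60 at 6 months and 6 of 8 were called higher, among them Mog (0.55) and Mal (0.50), which lay at -0.14 and -0.21 on scaled TPM. Opalin stayed below 0 there, at -0.03. Choroid plexus markers were below 0 in 10 of 10 at 6 months on scaled TPM (median -0.93, 0 called), and blood genes in 5 of 5 (1 called).

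At 12 months 0 of 8 were called (0.45% of all genes) and 0 had an unadjusted p below 0.05. Cldn11 had the largest change, 0.35 (limma adjusted p = 0.858), and 7 of 8 were above 0 with a median of 0.21. Choroid plexus markers were above 0 in 10 of 10 there (median 0.93, 0 called), with sums of 1458 to 1685 in APP and 427 to 1337 in WT, and endothelial markers in 8 of 8 (median 0.32, 0 called), and their part in the myelin changes was not tested. Mobp, Cnp and Cldn11 (3 of 8) lay wholly above WT, as did 8.76% of all genes, and 0 lay wholly below (6.69%). Klk6 lay wholly above WT too and is described without a test.

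Averaged over the ages, 0 of 8 myelin genes were called (0.219% of all genes), with 3 at an unadjusted p below 0.05. Mobp was nearest, at 0.33 (SE 0.09, limma adjusted p = 0.167), and its group mean was higher in APP at all 3 ages. On TPM as deposited 3 of 8 were called, Mobp, Mag and Mbp, with the median of all genes at 0.18. The genotype by age interaction called 0 of 8 (0.45% of all genes), with 2 at an unadjusted p below 0.05, namely Cnp (limma adjusted p = 0.199) and Opalin (limma adjusted p = 0.209). Cnp was called without APP replicate 2 at 3 months (limma adjusted p = 0.044) and without the 3 libraries with high thalamic markers (limma adjusted p = 0.0404).

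The fall with age was called within APP. Between 12 and 3 months 5 of the 8 myelin genes fell, against 3.32% of all genes called in either direction (327 higher and 263 lower). Mal fell by 1.05 on the log2 scale (SE 0.20, limma adjusted p = 0.0134), Mog by 0.94 (SE 0.20, limma adjusted p = 0.0225), Mbp by 0.90 (SE 0.19, limma adjusted p = 0.0212), Mobp by 0.71 (SE 0.16, limma adjusted p = 0.0245) and Cnp by 0.65 (SE 0.17, limma adjusted p = 0.0451). Cldn11 at -0.76 (limma adjusted p = 0.0788), Mag at -0.63 (limma adjusted p = 0.109) and Opalin at -0.17 (limma adjusted p = 0.783) did not pass. The median of the 8 changes was -0.74. Of the 8 genes 6 had every value at 3 months above every value at 12 months, as had 11.4% of all genes, with Cldn11 and Opalin as the exceptions.

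The same APP comparison carries the libraries that differed in these tissue markers. Thalamic markers were lower at 12 months in 8 of 8 by direction (median -1.92, 1 called), striatal markers in 8 of 8 (3 called), and hippocampal markers were higher in 8 of 8 (1 called). The fit without the 3 libraries with high thalamic markers was chosen after seeing the data. It leaves 1 APP mouse at 3 months, assumed to vary like the other groups. There the calls of Mobp (-0.61) and Mbp (-0.94) were lost, and that of Cldn11 (-1.06) was gained. With only the groups compared in the fit 0 of 8 were called, and 0 without APP replicate 3 at 12 months. The count was 1 without APP replicate 1 or replicate 2 at 12 months or without APP replicate 1 at 3 months, and 3 without APP replicate 3 at 3 months. Without APP replicate 2 at 3 months it was 6, with Cldn11 added. It was 3 on TPM as deposited, without the scaling. Cnp was not called in 13 of the fits with 1 library left out, some of which dropped a WT mouse. Nor was Cnp called with no filter on low values (limma adjusted p = 0.0794).

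In WT, 0 of 8 were called between 12 and 3 months (0.0619% of all genes), and 4 had an unadjusted p below 0.05. The direction was down in 7 of 8, with a median of -0.48, and Cldn11 had the largest change at -0.95 (SE 0.25, limma adjusted p = 0.292), followed by Mbp at -0.80 (limma adjusted p = 0.313). The same 7 genes had both WT values at 3 months above all 3 at 12 months, as had 14.6% of all genes, and Opalin was at 0.22. Thalamic sums of WT were 51.7 to 91.0 over all ages, choroid plexus markers were below 0 in 10 of 10 (median -0.76, 0 called), and blood genes were above 0 in 5 of 5 (1 called). Cldn11 was called without APP replicate 2 at 3 months (limma adjusted p = 0.0141) and without the 3 libraries with high thalamic markers (limma adjusted p = 0.00382), both of which change the shared estimate of the spread and not its WT values.

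Between 12 and 6 months 0 of 8 were called in WT (0% of all genes) and in APP (0.529%), with 0 and 3 at an unadjusted p below 0.05. All 8 changes in APP were above 0, with a median of 0.32, and Opalin was at 0.61 (limma adjusted p = 0.311), Mag at 0.46 (limma adjusted p = 0.395) and Cnp at 0.43 (limma adjusted p = 0.332). In WT the median was 0.03 with 5 of 8 above 0. In APP choroid plexus markers were above 0 in 10 of 10 in this comparison (median 1.39, 0 called, all 10 at an unadjusted p below 0.05) and endothelial markers in 7 of 8 (median 0.31, 0 called), and their part in the myelin changes was not tested. The age change of Klk6, described without a test, was 1.36 in APP between 12 and 6 months (SE 0.33) and 0.09 between 12 and 3 months (SE 0.33).

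**Figure D4:**
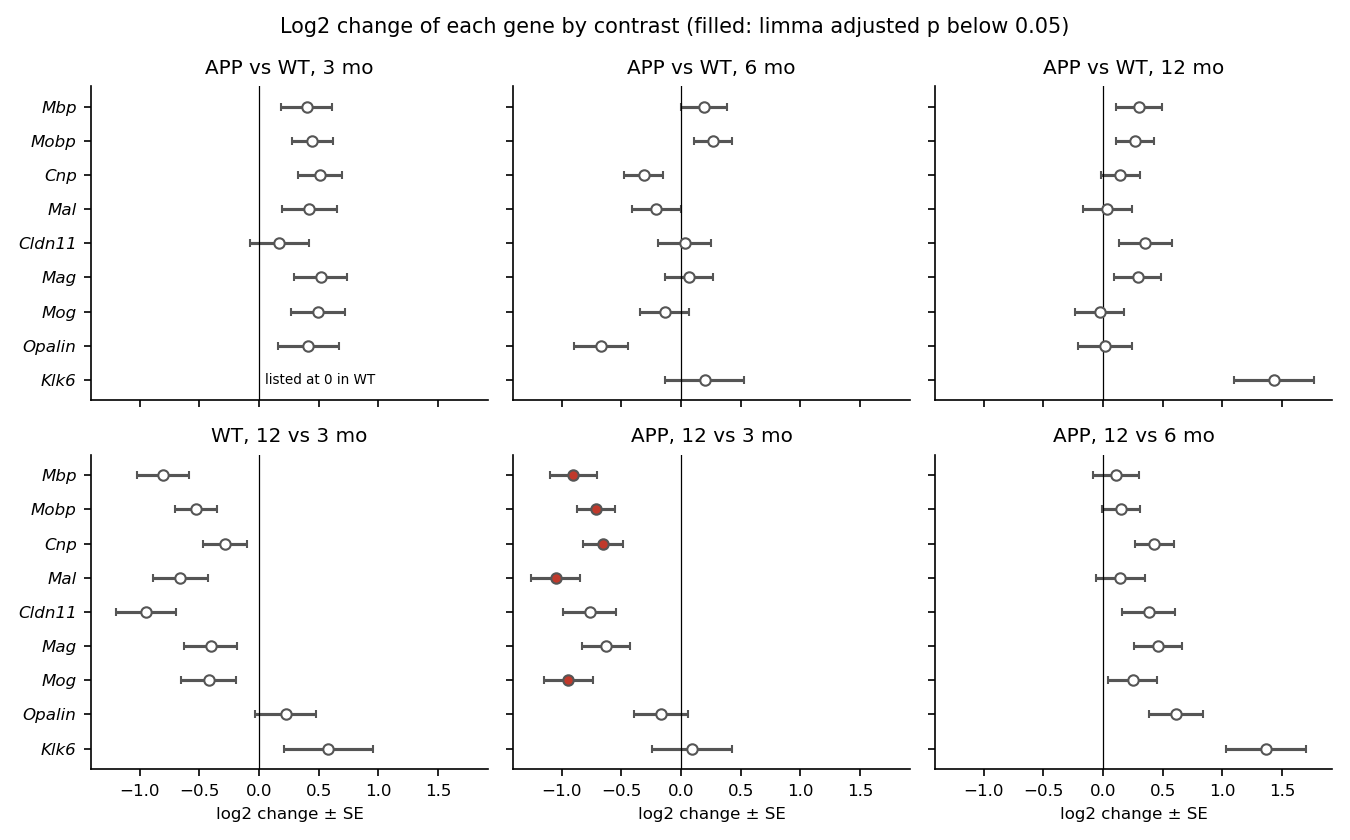
Log2 change (scaled TPM + 1) ± SE of the 9 genes in 6 contrasts from the limma fit, with filled points for an adjusted p below 0.05. Filled points are Mbp, Mobp, Cnp, Mal and Mog in APP at 12 against 3 months, Opalin stands apart from the other myelin genes in APP against WT at 6 months, and Klk6 is drawn without a value at 3 months.

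Of a list of 51 other genes of myelin and mature oligodendrocytes, at most 8 were called in any contrast. At 3 months 50 of 51 were above 0 in APP against WT (median 0.45), and 1 was called, against 0.298% of all genes. It was Ermn, a cytoskeletal protein of the oligodendrocyte (0.89, SE 0.16, limma adjusted p = 0.0428). Ermn was at 58.6, 34.8 and 42.0 in APP and 23.9 and 22.9 in WT at 3 months, a separation without overlap, and at 20.8 to 32.1 in the later libraries. At 6 months 1 of 51 was called (1.51% of all genes), Trim59, a ubiquitin ligase, at -0.52 (limma adjusted p = 0.0437), with 23 of 51 above 0. Both of these counts were 0 with only the groups compared, and that of 3 months was also 0 without the 3 libraries with high thalamic markers. At 12 months 0 of 51 were called by limma (0.45% of all genes) and 8 had an unadjusted p below 0.05. Among the genes of the list with the highest mean levels were Enpp2 at 355 scaled TPM, which the choroid plexus also expresses, and Trf, transferrin, at 125.

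In APP between 12 and 3 months 6 of the 51 genes were above 0 (median -0.28). Of the 51, 8 were called lower and 0 higher, against 3.32% of all genes called in either direction (327 higher and 263 lower). Among the largest were Tspan2, a tetraspanin (-1.03, limma adjusted p = 0.0123), and Ugt8a, the enzyme of galactosylceramide synthesis (-0.93, limma adjusted p = 0.0178). The smallest were Nfasc, an adhesion protein at nodes (-0.50, limma adjusted p = 0.0335), Gjc3, a connexin (-0.61, limma adjusted p = 0.0458), and Lpar1, a lysophospholipid receptor (-0.64, limma adjusted p = 0.0294). The count was 4 on TPM as deposited, 6 without the 3 libraries with high thalamic markers, 0 with only the groups compared and 0 to 9 when 1 library was left out. In WT between 12 and 3 months 0 of 51 were called by limma (0.0619% of all genes), and 10 had an unadjusted p below 0.05. There 22 of 51 were above 0 with a median of -0.04, against 1 of the 8 myelin genes above 0.

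Of 11 genes of oligodendrocyte precursors, Gpr17, a receptor of committed precursors, fell with age in both genotypes. Gpr17 was at 18.8, 10.3 and 20.6 in APP and 16.3 and 19.5 in WT at 3 months, and at 6.65, 6.76 and 7.37 in APP and 6.19, 6.77 and 4.84 in WT at 12 months. Both groups at 3 months were wholly above both groups at 12 months. On the log2 scale Gpr17 was at -1.45 in WT (SE 0.22, limma adjusted p = 0.0204) and -1.09 in APP (SE 0.20, limma adjusted p = 0.00891). With only the groups compared in the fit, neither call was made. Tnr, an extracellular matrix protein, was higher in APP at 6 months (0.48, limma adjusted p = 0.0254, lost with only the groups compared), and no other precursor gene was called in any contrast.

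Genes reported in reactive oligodendrocytes, which astrocytes and microglia also express, rose in APP at 12 months. Of 12, 4 were called higher against WT at 12 months, against 0.45% of all genes called in either direction. The count ran from 0 to 6 when 1 library was left out. The 4 were C4b, a complement component (1.87, limma adjusted p = 0.0102), H2-D1, an MHC class I gene (1.54, limma adjusted p = 0.0281), Serpina3n, a serine protease inhibitor (1.17, limma adjusted p = 0.0199), and Cd9, a tetraspanin (1.01, limma adjusted p = 0.00759). Between 12 and 3 months in APP (3.32% of all genes called) 6 rose. They were these 4 with H2-K1, another MHC class I gene, and B2m, the light chain of MHC class I. The kinase gene Sgk1 fell (-1.18, limma adjusted p = 0.0488). Between 12 and 6 months in APP (0.529% of all genes called) 7 rose, the same 6 and the tetraspanin Cd63. Without the 3 libraries with high thalamic markers 3 were called in each of these age comparisons, and with only the groups compared 4 and 0. Serpina3n was at 44.3, 35.7 and 46.9 in APP and 21.5, 19.2 and 14.2 in WT at 12 months. Of 8 microglia markers, 4 were also called higher in that comparison, and the cell source of these genes was not tested.

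Most other kallikreins were near or at 0. Of 12 other kallikrein genes Klk8, a neuronal kallikrein also called neuropsin, passed the filter. Klk4, Klk5 and Klk15 were listed at 0 in every library, and Klk10 and Klk9 had means of 0.601 and 0.595 scaled TPM. In WT at 12 months Klk10 had a mean of 1.01 and Klk9 of 0.686, against 0.503 for Klk6. Klk8 was at 0.730, 1.75 and 3.36 in APP and 3.49 and 4.72 in WT at 3 months, and at 6.66, 4.48 and 7.80 in APP at 12 months. Its APP values at 3 months were below all others but 1 APP library at 6 months and 1 WT library at 12 months. Klk8 rose by 1.38 in APP between 12 and 3 months (SE 0.30, limma adjusted p = 0.0239), and was not called without the 3 libraries with high thalamic markers or with only the groups compared. Of 10 genes for receptors, substrates and inhibitors of such proteases 5 were tested and 0 were called by limma in any contrast, with 0 or 1 of the 5 at an unadjusted p below 0.05 in each. The 2 highest of these were Serpine2, a protease inhibitor, with a mean of 63.9 scaled TPM, and Plat, tissue plasminogen activator, at 12.1.

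The genes whose log2 levels followed Klk6 most closely over the 17 libraries were not among the 8 myelin genes described above. Pearson's r over the 17 libraries, which share 6 groups and their differences in tissue markers, is given as a description. The 5 highest were Rassf4, a Ras-association protein (r = 0.95), Anxa5, a phospholipid-binding annexin (0.90), Galnt6, which starts mucin-type glycosylation (0.90), Anln, an actin-binding scaffold also found in myelin (0.89), and Lrig1, an inhibitor of growth factor receptors (0.88). With the 8 myelin genes r of Klk6 ran from 0.26 to 0.55 (median 0.38).

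Rassf4 was at 3.72, 4.37 and 1.97 in APP and 1.24 and 0.913 in WT at 3 months, and at 4.85, 4.06 and 4.14 in APP and 1.75, 1.66 and 1.78 in WT at 12 months. Anxa5 was at 39.5, 26.2 and 23.7 in APP and 17.7 and 19.3 in WT at 3 months, and at 35.8, 29.5 and 30.2 in APP and 20.2, 24.8 and 22.4 in WT at 12 months. Since Rassf4 and Anxa5 were picked for their likeness to Klk6, and Klk6 for its genotype difference, their own separation of the genotypes restates that choice. The pairs among the 8 myelin genes had r from 0.33 to 0.96 (median 0.90 over 28 pairs). Among the genes that followed the mean of the 8 most closely were Fa2h (0.97), which hydroxylates myelin lipids, Ugt8a (0.95), Lpar1 (0.94) and Tspan2 (0.94), and Opalin followed it least among the 8 (0.62).

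The order of the myelin genes by level depended on which deposited column was read. By mean scaled TPM it was Mobp (336), Mbp (165), Cnp (116), Cldn11 (82.9), Mal (77.5), Mag (69.9), Mog (28.6) and Opalin (9.59), and the ranges of neighbours in this order overlapped over the libraries. By mean scaled Coverage, a read depth, it was Mobp (117), Cldn11 (102), Mal (94.9), Cnp (86.6), Mag (35.3), Mog (35.0), Mbp (23.5) and Opalin (11.8). Mbp thus went from rank 2 to rank 7. Relative to the most frequent ratio of its library, the ratio of Coverage to FPKM was 0.101 to 0.132 for Mbp, 0.273 to 0.3 for Mobp, 0.373 to 0.437 for Mag, 0.582 to 0.681 for Cnp and 0.706 to 0.922 for Klk6, and 0.966 to 1.00 for Mog. GENCODE M21 lists 16 transcripts for Mbp, 8 for Mag, 7 for Mobp, 4 each for Cnp and Klk6, 2 each for Mog, Mal and Opalin and 1 for Cldn11. The levels of Mbp, Mobp, Mag and Cnp relative to the other genes are therefore uncertain. On scaled Coverage the 5 genes called in APP between 12 and 3 months all stayed below 0, and 4 of them were called, all but Cnp (limma adjusted p = 0.0724).

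**Figure D5:**
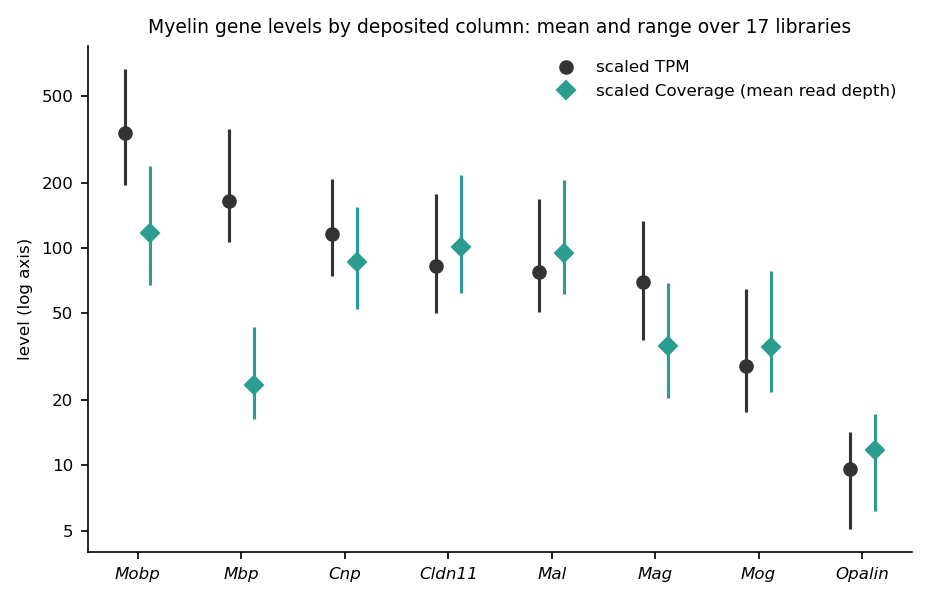
Mean (symbols) and range (lines) over the 17 hippocampus libraries of each myelin gene by scaled TPM and by scaled Coverage, on a log axis. Mbp stands at 165 scaled TPM and at 23.5 of scaled Coverage. Mal, Cldn11, Mog and Opalin stand at 77.5, 82.9, 28.6 and 9.59 scaled TPM and at 94.9, 102, 35.0 and 11.8 of scaled Coverage. The columns differ in unit, so only the order and spacing of the genes can be compared.

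Exons of Mobp share 79 of 6849 bases with Gm38642 on the same strand, and those of Cnp share 154 of 3639 with Dnajc7 on the opposite strand, while the other 7 genes overlap no other exon in GENCODE M21. HT-22 cells had been given anti-Hsf1 LNA (150 nM) or scramble (50 uM in the labels' words) during 24 h, with the Aβ42 peptide or its reverse at 30 uM. In their 14 libraries Mag, Mobp, Mal, Cldn11, Opalin and Klk6 were listed at 0 throughout. Mbp was at most 0.222 TPM as deposited and at 0 in 12 of 14 libraries, Mog was at most 0.719 with 7 of 14 at 0, and Cnp had a median of 2.54 (1.04 to 3.81). In the hippocampus the lowest scaled TPM of Mbp was 106, of Mog 17.7 and of Cnp 74.3, so that the neuronal line gave almost none of the myelin signal.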

How the data were processed

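Long-RNA libraries of 17 mouse hippocampi and 14 HT-22 cultures were used. Per the labels, RNA was extracted with Trizol, fragmented, depleted of ribosomal RNA and made into libraries with NEBNext Ultra reagents. The submitters' processing notes name FastQC, cutadapt 1.18, BWA 0.7.17, HISAT2 2.1.0, StringTie 1.3.4d and bedtools 2.26.0, and the builds mm10 and GRCm38, without saying which tool made which file. Per the file headers, the authors deposited Coverage, FPKM and TPM for each gene and library, with no pooling. TPM as deposited sums to 999823 to 999893 per hippocampus library. FPKM as deposited is proportional to TPM within a library and was used only for relative depth. The coverage signal as deposited is the mean read depth over a gene. These units do not hold the reads of each gene, which leaves out count models, and depth limits the precision of low values.

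TPM was summed per gene identifier and scaled by the median of ratios over 20713 genes above 0 in every library. Genes with a mean scaled TPM of at least 1 (17768) were tested with limma 3.58.1 (R 4.3.3, trend and robust empirical Bayes) on log2(scaled TPM + 1), which understates changes of low genes, with 6 groups in 1 fit and Benjamini-Hochberg adjustment over all genes tested. Tables and figures were made with Python 3.11.15, numpy 2.4.6, pandas 2.3.3 and matplotlib 3.10.9. The test was tried on simulated data. The 9 genes, the gene lists and the contrasts were chosen with earlier results of these data known, and so support nothing independently.

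Genes outside the 9 were named by a rule: from the list of other myelin genes, the 3 largest and 3 smallest log2 changes among called genes, else the 3 with the highest mean; from the precursor, reactive, kallikrein and partner lists, called genes, else the 2 with the highest mean; and the 5 genes with the highest Pearson's r. Some genes that the rule names are not reported here. Alternatives were no scaling, quantile normalisation, a pseudocount of 0.1, other filters, array weights, only the groups compared, a replicate block and each library left out. Scaled Coverage and leaving out 3 libraries with high thalamic markers were added after seeing the data. Replicate numbers are shared between APP and WT, but the deviations of same-numbered mice correlated by -0.07 to 0.12 (8 pairs), so the mice were not treated as pairs.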

Additional observations from a re-analysis of the deposited data

Results flagged for a closer look

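In the HT-22 group with Aβ42 peptide and scramble LNA, 1 of 4 libraries stood apart from the others for Mbp, at 0.222 TPM as deposited against 0 in the other 3. Cnp in that group had 1 library at 3.47 TPM against 2.65 to 2.76 in the other 3. Of 5 such sets of 4 values that were not all 0, 2 stood apart in this way, and at the 95% critical value used chance sets apart about 1 in 20. That rate does not hold for Mbp, where any value above 0 stands apart from 3 values of 0. The interaction term of limma was called for 3 genes of the lists of other myelin, precursor, reactive, kallikrein and partner genes. Their limma adjusted p was 0.0222 for Serpina3n, 0.0298 for Trim59 and 0.034 for Cd9. A genotype difference that changes with age cannot be told apart here from the Y-linked transcripts of the later WT mice. Among the markers of other cells and tissues, the blood genes Hbb-bs and Hbb-bt, the hippocampal gene Fibcd1, the microglial gene Cst7 and all 5 sex-linked genes were also called. Trim59 was at 16.4, 12.4 and 15.1 in APP and 8.94 and 9.22 in WT at 3 months, and at 9.23, 7.60 and 10.2 in APP and 13.4, 14.1 and 12.4 in WT at 6 months, so that its genotypes changed places. Cd9 was at 60.0, 56.6 and 51.5 in APP and 25.7, 26.7 and 29.7 in WT at 12 months, and overlapped at 3 months. Serpina3n was below WT in all APP mice at 3 months and above WT in all APP mice at 12 months.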

How the results depend on the processing

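The count of myelin genes called in APP between 12 and 3 months was 5, and it was 3 on TPM as deposited, 0 with only the groups compared, 5 with the replicate block, 4 on scaled Coverage and 0 to 6 when each library was left out in turn. On TPM as deposited, 6 were called in APP against WT at 6 months and 3 averaged over ages, where 0 were called on scaled TPM, and the median of all genes was then 0.60 and 0.18. Mog (0.55) and Mal (0.50) at 6 months turned from below to above 0 with that setting. Without scaling that median was -0.16 at 3 months and 0.12 at 12 months in APP against WT, 0.29 in the interaction, -0.29 and 0.21 in WT at 12 against 3 and 6 months, and -0.28 in APP at 12 against 6 months, where with scaling it was within 0.01 of 0 in every contrast. For WT between 12 and 3 months and for the interaction the count ran from 0 to 1 when each library was left out, and was 1 in each without the 3 libraries with high thalamic markers. The replicate block changed no call of a myelin gene in the contrasts where it was run, and moved the count of the 51 other myelin genes from 1 to 0 at 6 months and from 1 to 2 in the interaction. Of Klk6 in APP against WT at 12 months, the log2 change of 1.43 was 2.42 with a pseudocount of 0.1. The cause of these changes was not tested. The main limits are the 2 WT mice at 3 months, the low read depth of Klk6, the high thalamic markers in 3 APP libraries, and the Y-linked transcripts of the later WT mice.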
